A study of Mus musculus with 10 samples.

Results

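The genes described here are 53 genes of DNA replication and cell division, taken by name from a table of RNA-seq read counts that holds 46095 gene symbols. All 53 were in the table, and all 53 were among the 15335 genes that passed the filter on low counts and were tested. They fall into 22 genes of the replication machinery, 9 regulators of the passage from G1 into S phase and 22 genes of mitosis. The cells were C3H10 T1/2, an established mouse embryo fibroblast line with mesenchymal properties, labelled as strain C57BL/6. Static controls (3 libraries) were compared with cells under cyclic mechanical strain (3 libraries), a 0.5 Hz sinusoidal stretch of 10% elongation applied to flexible collagen-coated plates for 8 h a day over 3 days, after 48 h in culture. A second readout came from ATAC-seq, which maps open chromatin, in 2 libraries of GFP control cells and 2 of cells in which CRISPR/Cas9 had knocked out Piezo1, a mechanically gated ion channel. Whether the knockout cells are 1 clone, and whether any of the replicates are separate cultures, is not given in the sources used here, so each p-value reflects only how far these libraries scatter, and that scatter may be technical.

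Total counts lay between 36150738 and 41024689 per library. Static control replicate 3 and strain replicate 1 stood farther from their own groups than the other libraries did, with chi-square over degrees of freedom at 26.2 to 44.8 against their partners, while the remaining pairs were at 7.25 and 12. The mesenchymal genes Col1a1, Col1a2, Fn1, Vim, Pdgfra, Pdgfrb, Twist1 and Prrx1 were expressed in every library, and Thy1 had 0 to 2 counts. Of 10 markers of other cell types, Ptprc, Cdh5, Epcam, Myod1 and Myog had 0 counts in all 6 libraries, Pecam1, Krt5 and Adipoq had at most 7, and Cd68 was at 2.13 to 4.47 CPM. Some of these markers moved with strain: Col1a1, Col1a2, Vim and Twist1 were called lower, and Cdh1, an epithelial cadherin, was called lower from 8.44, 8.03 and 6.23 CPM in controls to 1.10, 2.62 and 2.35 CPM under strain. Their part in the results on cell cycle genes was not tested. Levels are given as CPM, read counts scaled to a common library size with TMM normalization.

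A cell that divides first loads the MCM helicase onto replication origins in G1, with Cdc6 and Cdt1 as loaders. Cyclin E with Cdk2 and the E2F transcription factors then drive entry into S phase, when the helicase, polymerases and the enzymes that supply deoxynucleotides are at work. Genes of this first wave are classic targets of E2F. Genes of the later wave (cyclin B, Cdk1, Aurora and Polo kinases, spindle motors) peak in G2 and mitosis and are classic targets of the B-Myb and FoxM1 programme, which acts through a CHR element and nearby CCAAT boxes. C3H10 T1/2 cells are multipotent and can be driven towards bone, cartilage or fat, and their growth slows when they touch each other.

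Replication genes were higher under strain in 15 of 22 members, while 1 of 22 mitotic genes was (edgeR quasi-likelihood test, Benjamini-Hochberg adjusted p under 0.05). Of all genes tested 5.94% were called higher and 7.39% lower. The median log2 fold change was 0.47 for replication genes and 0.23 for mitotic genes, against 0.0049 over all genes tested. Estimates were positive in 21 of 22 replication genes and 19 of 22 mitotic genes, against 50.6% of all genes tested. At an unadjusted p under 0.05, 17 replication and 8 mitotic genes were higher, against 14.5% of all genes. At that level 0 of either group were lower, against 15.1% of all genes. All 6 subunits of the MCM helicase rose, by 1.36-fold to 1.72-fold. The G1/S regulators did not move as a group, with 2 higher, 1 lower and a median of −0.0099 that changed sign, to 0.039, with library size alone as scaling. The members had been chosen with earlier results on these libraries known, so these shares describe the groups and are not independent evidence of their direction. In bulk RNA a larger share of cells in a phase and more mRNA per cell cannot be told apart.

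**Figure D1:**
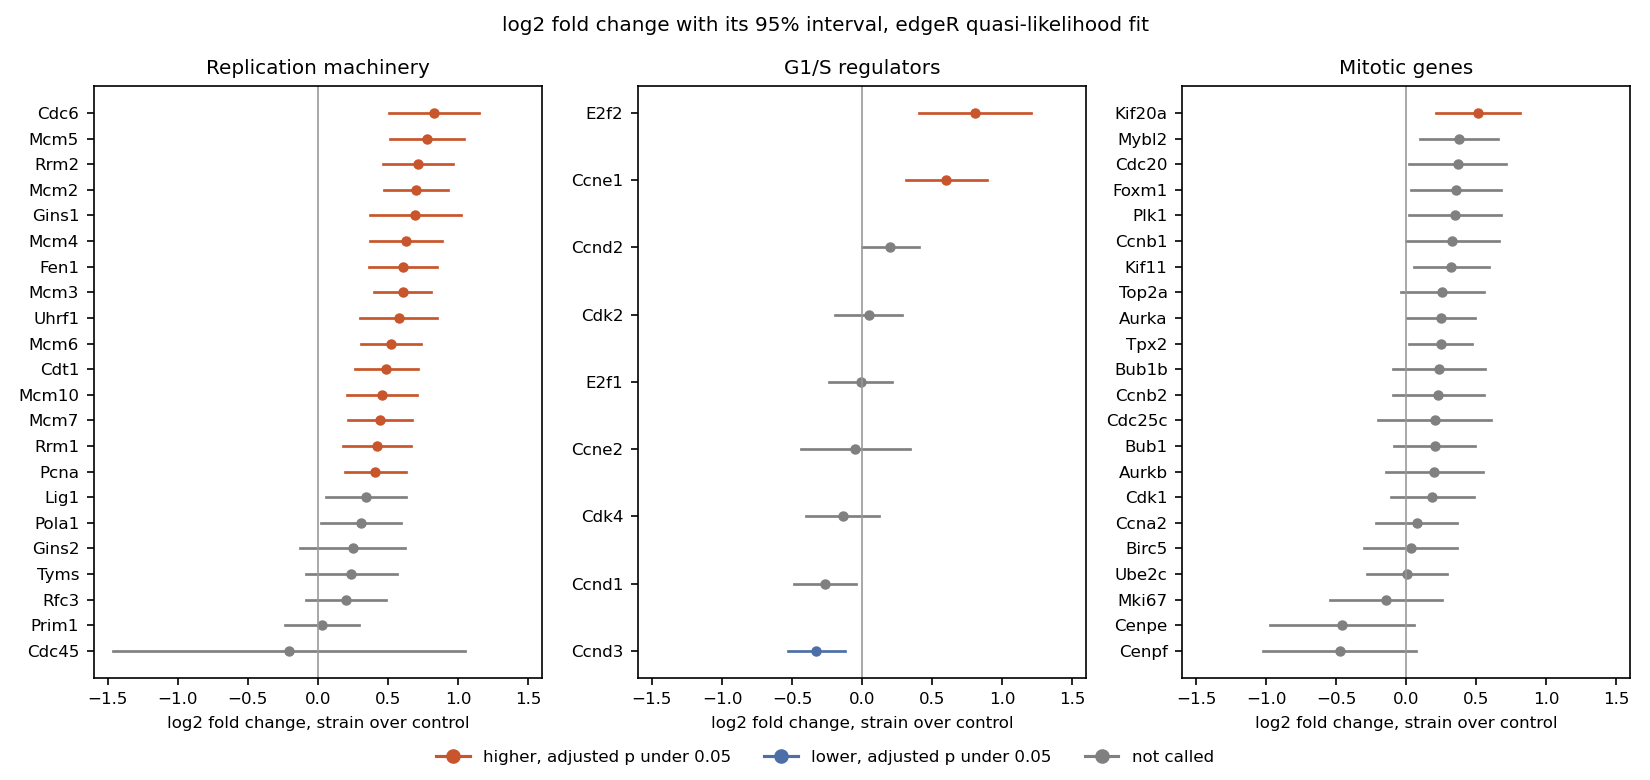
Each point is the log2 fold change of 1 gene, strain over control, from the edgeR fit, and each line its 95% interval, with genes in 3 panels by role and ordered by fold change. The 15 called replication genes lie between 0.41 and 0.83, and among mitotic genes Kif20a is called at 0.51.

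The promoter sequence of the genes, a measure that does not use the RNA values, differed between the groups. RefSeq promoter windows (GRCm38.p6, 250 bases before to 50 bases after a start site, 300 bases in all) matched 41 of the 53 members by symbol, of which 19 were replication genes, 16 mitotic genes and 6 G1/S regulators. Each window was searched on both strands for E2F-type letters (TTTCGCGC, TTTGGCGC or TTTCCCGC), CHR-type letters (TTTGAA or TTCGAA) and the letters CCAAT, the box bound by NF-Y. Words can overlap each other, and each kind was counted separately. An E2F-type match was present in 10 of 19 replication genes (52.6%) and in 1 of 16 mitotic genes (6.25%), Cdk1, against 3.89% of the 10520 tested genes that have a window. A CHR-type match was present in 12 of 16 mitotic genes (75%) and 5 of 19 replication genes (26.3%), against 16.5% of tested genes. All 12 of these mitotic genes also held CCAAT, a pair found in 4 of 19 replication genes (21.1%) and in 7.06% of tested genes. CCAAT, counted with or without a CHR-type match, was in 14 of 19 replication genes and 14 of 16 mitotic genes, against 42.7% of tested genes. Per window, the share with an E2F-type match was 41.7% of 24 windows for replication genes, 6.25% of 16 for mitotic genes and 3.22% of 13497 for tested genes. Among replication genes a match did not follow the call, since 7 of 13 called members and 3 of 6 that were not called held E2F-type letters. A match is a run of letters and was not tested as a binding site. Only exact words were searched, so variants of a site were not counted and a window without a match may hold one.

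**Figure D2:**
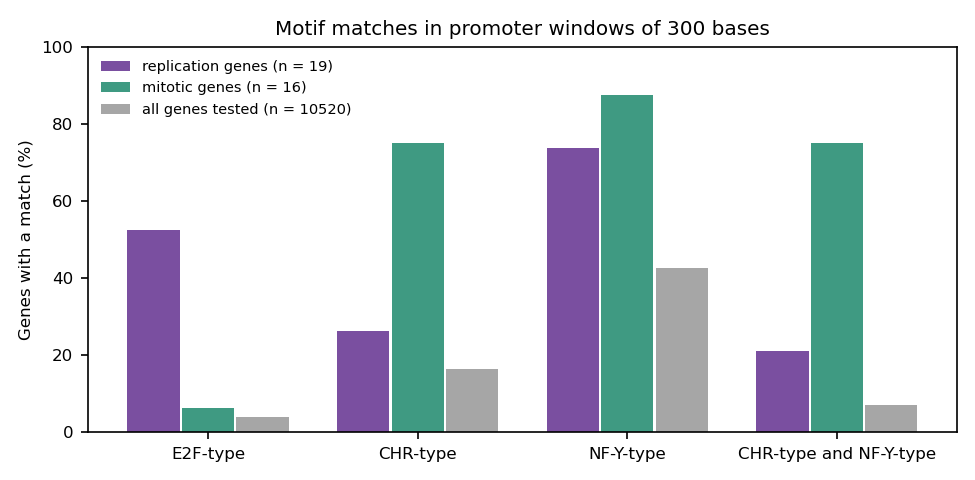
Bars give the share of genes, in percent, with at least 1 match in a promoter window, for 19 replication genes, 16 mitotic genes and 10520 tested genes. E2F-type matches are most frequent in replication genes (52.6%), and CHR-type with NF-Y-type (CCAAT) matches in mitotic genes (75%).

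The windows below belong to the pair of members with the smallest p in each group that has a window, Mcm2 and Mcm3 for replication and Mybl2 and Kif11 for mitosis. Mcm5 and Cdc20 were added after the matches were seen, because they show the 2 patterns side by side. Matches are in capitals, all are written 5′ to 3′ on the strand of the gene, and where a gene has several windows the one with most matches is shown.
Mcm2 (chr6:88898731-88899030, minus strand): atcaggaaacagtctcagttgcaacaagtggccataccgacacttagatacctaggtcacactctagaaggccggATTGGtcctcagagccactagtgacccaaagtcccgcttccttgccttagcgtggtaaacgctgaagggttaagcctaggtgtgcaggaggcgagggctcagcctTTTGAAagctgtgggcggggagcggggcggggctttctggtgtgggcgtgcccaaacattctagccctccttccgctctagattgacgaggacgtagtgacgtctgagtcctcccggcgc
Mcm3 (chr1:20820263-20820562, minus strand): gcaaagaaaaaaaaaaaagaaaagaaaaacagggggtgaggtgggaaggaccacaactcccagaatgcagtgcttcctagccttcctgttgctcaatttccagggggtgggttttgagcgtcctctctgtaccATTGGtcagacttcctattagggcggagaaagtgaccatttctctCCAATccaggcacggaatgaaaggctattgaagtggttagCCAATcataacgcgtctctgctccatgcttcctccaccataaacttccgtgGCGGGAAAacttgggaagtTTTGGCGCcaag
Mcm5 (chr8:75109259-75109558, plus strand): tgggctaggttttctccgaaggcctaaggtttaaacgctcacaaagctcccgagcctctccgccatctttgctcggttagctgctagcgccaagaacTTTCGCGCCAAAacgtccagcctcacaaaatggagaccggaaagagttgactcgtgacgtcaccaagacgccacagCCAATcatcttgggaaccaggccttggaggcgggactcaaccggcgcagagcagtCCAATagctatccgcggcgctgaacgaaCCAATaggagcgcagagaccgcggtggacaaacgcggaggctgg
Mybl2 (chr2:163054385-163054684, plus strand): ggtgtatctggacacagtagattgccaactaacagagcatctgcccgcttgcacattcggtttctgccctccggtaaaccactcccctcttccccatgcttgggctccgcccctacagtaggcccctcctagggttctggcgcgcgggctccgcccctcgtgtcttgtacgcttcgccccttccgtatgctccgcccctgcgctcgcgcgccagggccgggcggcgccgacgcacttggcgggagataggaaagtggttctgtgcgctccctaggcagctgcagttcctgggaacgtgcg
Kif11 (chr19:37376132-37376431, plus strand): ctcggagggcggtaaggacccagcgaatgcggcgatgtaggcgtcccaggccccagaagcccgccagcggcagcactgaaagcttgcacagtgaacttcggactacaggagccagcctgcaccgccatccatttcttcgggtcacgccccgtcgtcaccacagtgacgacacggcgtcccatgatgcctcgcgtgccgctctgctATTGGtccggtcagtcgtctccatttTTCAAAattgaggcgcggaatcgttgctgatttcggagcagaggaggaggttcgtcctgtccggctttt
Cdc20 (chr4:118437294-118437593, minus strand): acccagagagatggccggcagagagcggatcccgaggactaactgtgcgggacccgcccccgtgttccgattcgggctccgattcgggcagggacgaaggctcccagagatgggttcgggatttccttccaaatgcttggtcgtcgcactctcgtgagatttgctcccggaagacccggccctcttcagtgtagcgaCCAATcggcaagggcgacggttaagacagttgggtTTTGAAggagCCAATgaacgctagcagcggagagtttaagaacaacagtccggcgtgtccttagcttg
In Mcm5 a pair of overlapping E2F-type matches began 153 and 149 bases before the start, followed by 3 CCAAT matches. In Mcm3 the E2F-type matches began at bases 20 and 39 after the start, and in Mcm2 none of the E2F-type words was found, while a CHR-type match began 70 bases before the start. Kif11 and Cdc20 each held a CHR-type match close to the start, 19 and 18 bases before it, with a CCAAT match 45 and 53 bases before it. None of the searched words was in the Mybl2 window, which may still hold a variant of them, since only exact words were searched. That window begins at base 163054385, inside the RefSeq gene, which starts at base 163054327. Sequence before that gene start was therefore not searched.

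The MCM2-7 complex is the helicase that unwinds DNA at the fork, and its 6 subunits moved together. Mcm2 was at 102, 123 and 108 CPM in the controls, listed by replicate number here and throughout, and at 175, 180 and 187 CPM under strain (log2 fold change 0.70, SE 0.10, adjusted p = 0.00181). Mcm5, whose window carries the overlapping E2F-type letters shown above, was at 51.7, 60.8 and 58.8 CPM in controls and 84.0, 105 and 105 CPM under strain (0.78, SE 0.12, adjusted p = 0.00233). Mcm3 was at 62.8, 67.6 and 62.2 CPM in controls and 98.2, 98.6 and 96.1 CPM under strain (0.60, SE 0.092, adjusted p = 0.00227). In all 3 genes every strain library lay above every control library, and for Mcm3 the strain libraries lay within 96.1 to 98.6 CPM. Mcm4 was at 50.6, 55.0 and 47.2 CPM in controls and 72.0, 89.8 and 74.4 CPM under strain (adjusted p = 0.00606). Mcm6 was at 78.7, 87.4 and 87.9 CPM in controls and 126, 124 and 115 CPM under strain (adjusted p = 0.00604). The smallest of the 6 increases was that of Mcm7, from 88.2, 90.5 and 101 CPM in controls to 116, 127 and 137 CPM under strain (0.44, SE 0.10, adjusted p = 0.0204), a gene that overlaps Ap4m1 and 3 miRNA genes. The groups did not overlap for these 3 subunits either, while 17.4% of all genes tested had every strain library above every control. The calls of Mcm2 to Mcm5 were kept when any 1 library was left out (adjusted p up to 0.0361). That of Mcm6 was lost on omission of control library 1 (adjusted p = 0.0526), and that of Mcm7 on omitting control library 1 or strain library 2 or 3 (adjusted p up to 0.112).

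The loaders and partners of the helicase gave a mixed picture, with 4 of 6 called higher, against 5.94% of all genes tested. Cdc6, which recruits the helicase to origins, had the largest increase of all members, from 9.25, 10.0 and 7.37 CPM in controls to 15.4, 16.8 and 15.1 CPM under strain (log2 fold change 0.83, SE 0.14, adjusted p = 0.00445). Cdt1, its partner in loading, was at 43.7, 48.7 and 51.8 CPM in controls and 65.5, 68.0 and 68.5 CPM under strain (0.49, adjusted p = 0.0115). Gins1, a subunit of the GINS complex that activates the helicase, was at 5.38, 6.52 and 7.0 CPM in controls and 9.85, 10.3 and 10.4 CPM under strain (0.70, adjusted p = 0.0122). The groups did not overlap for any of these 3 genes, while 17.4% of all genes tested had every strain library above every control. Mcm10, which helps to fire the loaded helicase, was at 14.8, 15.5 and 15.9 CPM in controls and 22.2, 21.6 and 19.6 CPM under strain (0.46, adjusted p = 0.0262). Gins2, of the same complex as Gins1, was at 17.1 to 26.3 CPM in controls and 21.3 to 28.2 CPM under strain, and its interval of −0.12 to 0.63 on the log2 scale leaves room for a change as large as that of Cdt1. Cdc45, the remaining helicase cofactor, had only 10 to 41 counts per library (0.24 to 1.07 CPM) in a gene that overlaps Ufd1, so its fold change was not resolved (95% interval −1.46 to 1.05). The calls of Cdt1 and Gins1 were lost on omission of control library 1 or strain library 3 (adjusted p up to 0.0819 and 0.0718). The call of Mcm10 was lost on omission of control library 1 or any of strain libraries 1, 2 and 3 (up to 0.122). That of Cdc6 was kept throughout (up to 0.0217).

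Both subunits of ribonucleotide reductase, which makes deoxynucleotides, were called higher, against 5.94% of all genes tested. Rrm2, the subunit whose level follows S phase, was at 48.5, 47.9 and 50.3 CPM in controls and 69.2, 89.6 and 82.2 CPM under strain (log2 fold change 0.72, SE 0.11, adjusted p = 0.00275). Rrm1, the large subunit, was at 109, 118 and 107 CPM in controls and 135, 169 and 143 CPM under strain (0.42, SE 0.11, adjusted p = 0.0305). Strain replicate 1 was the lowest strain library for both genes and still lay above every control. Tyms, the thymidylate synthase, was at 45.3, 44.4 and 60.8 CPM in controls and 50.6, 60.9 and 66.0 CPM under strain, so its groups overlapped (95% interval −0.088 to 0.56). The call of Rrm1 was lost on omission of control library 1 or 3, or of strain library 2 or 3 (adjusted p up to 0.138), and that of Rrm2 was kept (up to 0.0204).

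Among the 7 genes of strand synthesis, ligation and maintenance of DNA methylation, 3 were called higher, against 5.94% of all genes tested. Fen1, the flap nuclease of lagging-strand processing, was at 34.5, 36.8 and 38.4 CPM in controls and 49.4, 57.4 and 60.0 CPM under strain (log2 fold change 0.61, SE 0.11, adjusted p = 0.00551). Uhrf1, which brings the maintenance methyltransferase to new DNA, was at 84.5, 97.3 and 83.5 CPM in controls and 110, 144.5 and 141 CPM under strain (0.58, adjusted p = 0.0140). Pcna, the sliding clamp, was at 102, 103 and 116 CPM in controls and 145, 147 and 134 CPM under strain (0.41, adjusted p = 0.0230), and it has 2 named pseudogenes that could share reads. In these 3 genes all strain libraries lay above all controls, as they did in 17.4% of all genes tested. The other 4 genes did not pass. Lig1, the replicative ligase, was at 34.5, 31.7 and 41.2 CPM in controls and 40.0, 48.2 and 48.4 CPM under strain (0.35, adjusted p = 0.101). Pola1, the catalytic subunit of polymerase alpha, was at 22.4, 27.4 and 20.6 CPM in controls and 27.5, 29.5 and 30.3 CPM under strain (0.31, adjusted p = 0.135). Rfc3, a clamp loader subunit, was at 16.5, 17.1 and 19.3 CPM in controls and 17.5, 21.97 and 21.3 CPM under strain (0.20, adjusted p = 0.327). Of these 3, Pola1 alone had groups that did not overlap. Prim1, the primase subunit, was at 18.4 to 21.2 CPM in controls and 18.6 to 22.2 CPM under strain, with a 95% interval of −0.24 to 0.29. The upper end of the Prim1 interval is below the estimate of every called replication gene. The call of Fen1 was kept with any 1 library left out (up to 0.0412). That of Uhrf1 was lost on omission of control library 1 or strain library 2 or 3 (up to 0.0732), and that of Pcna on omitting control library 1 or 2 or strain library 2 or 3 (up to 0.124).

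Of the 22 replication genes 0 were called lower by edgeR, DESeq2 or limma-voom, 0 were lower at an unadjusted p under 0.05, and 17 were higher at that level, against 14.5% of all genes higher and 15.1% lower. DESeq2 and limma-voom each called 15 higher, where they called 8.07% and 6.09% of all genes higher and 9.33% and 7.48% lower. All 3 strain libraries lay above all 3 controls in 16 of the 22, against 17.4% of all genes tested, and below all controls in 0 of 22, against 17.9%. With any 1 library left out, 7 to 15 replication genes were called, 7 without control replicate 1 and 8 without strain replicate 3. These counts include Pola1, newly called when control 2 was omitted, and Lig1, newly called when control 3 was. The share of all genes called higher was 2.36%, 6.89% and 4.44% with control 1, 2 or 3 omitted and 4.99%, 2.67% and 2.57% with strain 1, 2 or 3 omitted.

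**Figure D3:**
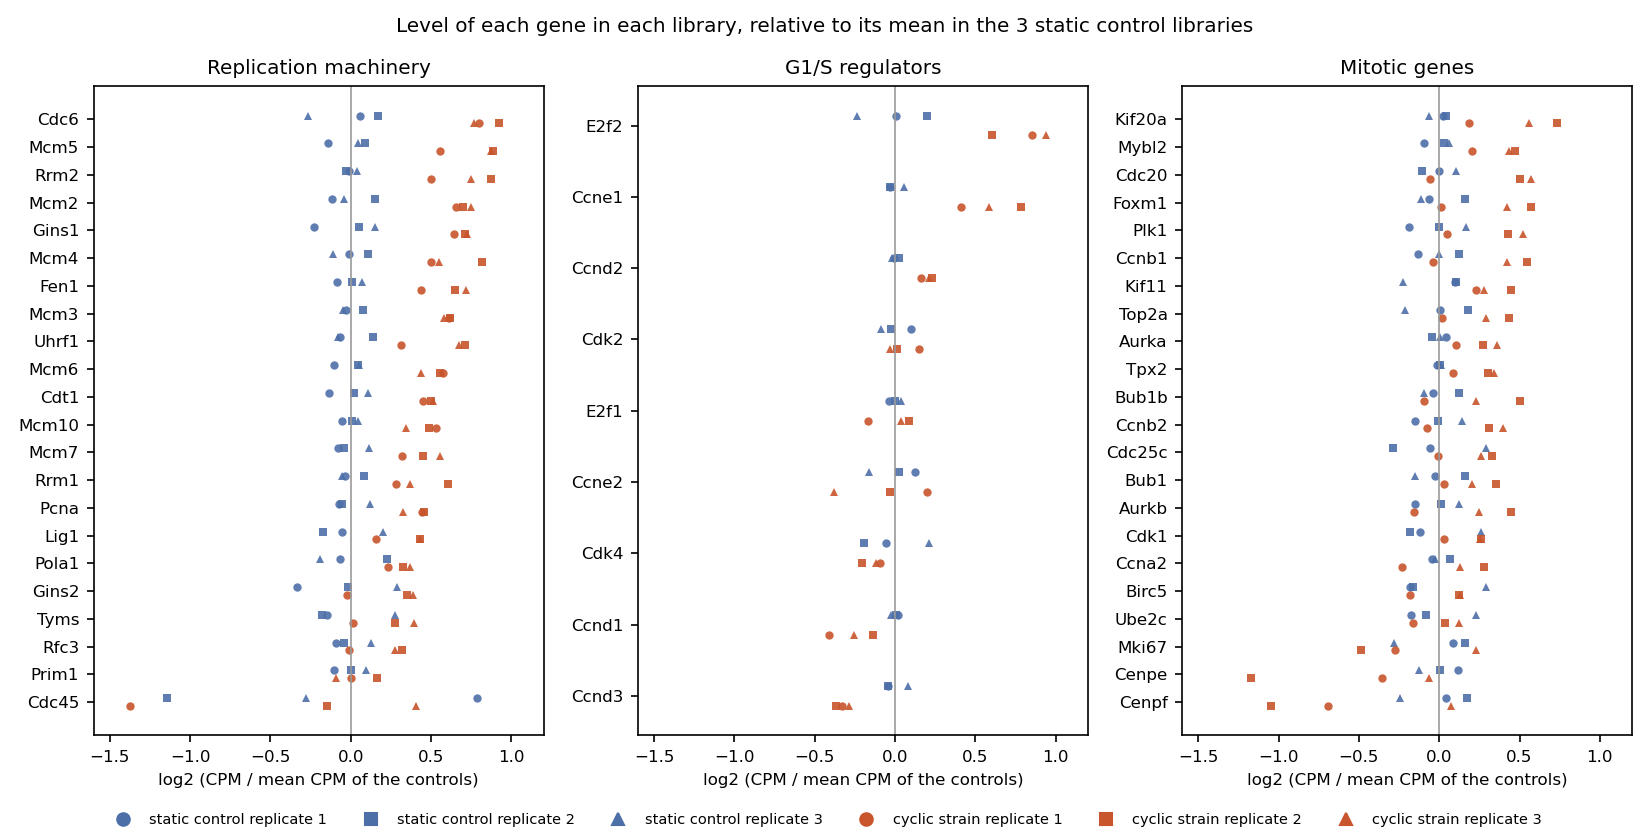
Each symbol is 1 library, placed by the log2 ratio of its CPM to the mean CPM of the 3 controls, for each of the 53 genes, with strain libraries in orange and controls in blue. Strain replicate 1 (orange circles) is above the controls for most replication genes and falls among the controls for most mitotic genes.

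Among the E2F and cyclin E genes, 1 member of each pair rose and the other did not pass. E2f2, an activating E2F factor, was at 3.97, 4.55 and 3.36 CPM in controls and 7.16, 6.01 and 7.61 CPM under strain (log2 fold change 0.81, SE 0.18, adjusted p = 0.0163). Ccne1, which encodes cyclin E1, was at 11.8, 11.8 and 12.5 CPM in controls and 15.9, 20.7 and 18.03 CPM under strain (0.60, SE 0.13, adjusted p = 0.0146). Neither gene had overlapping groups, while 17.4% of all genes tested had every strain library above every control. E2f1, a second activating E2F, was at 60.3, 61.8 and 63.3 CPM in controls and 55.1, 65.7 and 63.3 CPM under strain, with a 95% interval of −0.24 to 0.22. Ccne2, the other cyclin E gene, was at 8.23, 7.70 and 6.74 CPM in controls and 8.69, 7.40 and 5.82 CPM under strain (−0.44 to 0.34). The groups overlapped in both. The call of E2f2 was lost on omission of control library 1 or strain library 3 (adjusted p up to 0.0761). That of Ccne1 was lost on omission of control library 1 or strain library 2 or 3 (up to 0.0731).

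D-type cyclins carry growth signals to Cdk4, and the 3 genes did not share a direction. Ccnd3 was at 136, 136 and 148 CPM in controls and 111, 108 and 115 CPM under strain, the only member called lower (log2 fold change −0.33, SE 0.092, adjusted p = 0.0419). Omitting any single library ended that call (adjusted p up to 0.149), as did testing without a filter on low counts or scaling by library size alone. All genes were called lower at 3.9%, 7.9% and 5.36% with control 1, 2 or 3 omitted, at 6.59%, 4.2% and 3.68% with strain 1, 2 or 3 omitted, at 6.22% without the filter and at 6.1% by library size. In RefSeq, Ccnd3 overlaps Bysl and Gm41590, and it has 1 named pseudogene that could share reads. Ccnd1 was at 212, 210 and 205 CPM in controls and 157, 190 and 175 CPM under strain, below the controls in all 3 strain libraries without passing the test (−0.26, adjusted p = 0.110). Ccnd2 was at 554, 568 and 551 CPM in controls and 626, 656 and 645 CPM under strain, above the controls in all 3 without passing (0.20, adjusted p = 0.165). Cdk4, the kinase partner of these cyclins, was at 384, 349 and 462 CPM in controls and 374, 345 and 368 CPM under strain (95% interval −0.40 to 0.12). Cdk2, the partner of cyclin E, was at 34.0, 31.2 and 29.9 CPM in controls and 35.2, 32.0 and 31.0 CPM under strain (−0.19 to 0.29). The groups overlapped for both kinases.

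Among mitotic genes Kif20a alone was called. This kinesin of the central spindle was at 65.3, 66.2 and 61.6 CPM in controls and 73.2, 107 and 94.7 CPM under strain (log2 fold change 0.51, SE 0.13, adjusted p = 0.0334). Its groups did not overlap, with strain replicate 1 closest to the controls. The call was lost on omission of control library 1 or 3, or of strain library 2 or 3 (adjusted p up to 0.138), and the estimate moved to 0.38 when strain replicate 2 was omitted and to 0.65 when strain replicate 1 was. Scaling by library size alone called Mybl2 as well (7.62% of all genes called higher), and testing without a filter called Cdc20 (5.64%). In RefSeq, Kif20a overlaps Brd8 and Cdc23.

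Neither transcription factor of the mitotic programme passed the test. Mybl2, which encodes B-Myb, was at 12.6, 13.8 and 14.1 CPM in controls and 15.6, 18.7 and 18.2 CPM under strain (log2 fold change 0.37, adjusted p = 0.0730). Foxm1 was at 52.9, 61.6 and 51.1 CPM in controls and 55.7, 82.2 and 73.9 CPM under strain (0.35, adjusted p = 0.133). For Foxm1 strain replicate 1 sat among the controls, while for Mybl2 the groups did not overlap.

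The other 4 spindle and kinetochore genes did not pass, with estimates on both sides of 0. Kif11, the motor that separates spindle poles, was at 43.2, 43.4 and 34.5 CPM in controls and 47.3, 54.9 and 49.1 CPM under strain (log2 fold change 0.32, adjusted p = 0.105). Tpx2, a spindle assembly factor that activates Aurora A, was at 70.1, 71.3 and 71.3 CPM in controls and 75.1, 87.3 and 89.8 CPM under strain (0.25, adjusted p = 0.136). Both kept their groups apart, while 17.4% of all genes tested had every strain library above every control. The kinetochore genes Cenpe and Cenpf had the lowest fold changes of all members, at −0.46 and −0.48, with intervals that include 0. Cenpf was at 17.7, 19.3 and 14.5 CPM in controls and 10.6, 8.31 and 18.03 CPM under strain, so strain replicates 1 and 2 lay below the controls and strain replicate 3 among them. Without strain replicate 3 Cenpf was called lower (−0.87, adjusted p = 0.0266), and likewise with no filter on low counts (−0.48, adjusted p = 0.0400). Mki67, the proliferation antigen Ki-67, was lowest in strain replicate 2 and highest in strain replicate 3, at 37.9, 32.8 and 53.7 CPM under strain against 48.7, 51.2 and 37.7 CPM in controls (95% interval −0.55 to 0.25).

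Cyclins, kinases and checkpoint genes of mitosis lay slightly above 0, with 0 of 13 called by edgeR, DESeq2 or limma-voom and 3 of 13 higher at an unadjusted p under 0.05. Of all genes 5.94% were called higher by edgeR, 8.07% by DESeq2 and 6.09% by limma-voom, and 14.5% were higher at that unadjusted level. Ccnb1, cyclin B1, was at 38.9, 46.5 and 42.5 CPM in controls and 41.4, 62.1 and 57.1 CPM under strain (95% interval −0.0011 to 0.66). Its kinase Cdk1 was at 46.3, 44.4 and 60.1 CPM in controls and 51.3, 60.2 and 60.0 CPM under strain (−0.11 to 0.48). Cdc20, the activator of the anaphase-promoting complex, was at 46.5, 43.3 and 50.1 CPM in controls and 44.7, 66.2 and 69.4 CPM under strain (0.021 to 0.71, adjusted p = 0.145). In Cdc20 and Ccnb1 strain replicates 2 and 3 were above every control and strain replicate 1 was not. Plk1, the Polo kinase, had a log2 fold change of 0.35, Aurka and Aurkb, the Aurora kinases, 0.25 and 0.20, and the checkpoint kinases Bub1 and Bub1b 0.20 and 0.23. Ube2c, the ubiquitin-conjugating partner of the anaphase-promoting complex, and Birc5, or survivin, were at 0.0014 and 0.032. The remaining estimates were 0.07 for Ccna2, cyclin A2, 0.23 for Ccnb2, a second cyclin B, and 0.20 for Cdc25c, the phosphatase that activates Cdk1. Outside these 13, Top2a, the topoisomerase that untangles chromosomes, was at 0.26.

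The count of mitotic calls changed with the libraries included. It was 0 when control 1, control 3, strain 2 or strain 3 was omitted and 1 when control 2 was. Strain replicate 1 was the lowest of the 3 strain libraries in 19 of 22 mitotic genes, in 16 of 22 replication genes and in 5773 of all 15335 genes tested. Without it, 5 mitotic genes were called higher (Ccnb1, Cdc20, Foxm1 and Mybl2 beside Kif20a) and 14 replication genes, against 4.99% of all genes, and the medians were 0.33 and 0.50. With static control replicate 3 left out as well, a choice made after the data were seen, 12 mitotic and 19 replication genes were called higher, against 9.77% of all genes.

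**Figure D4:**
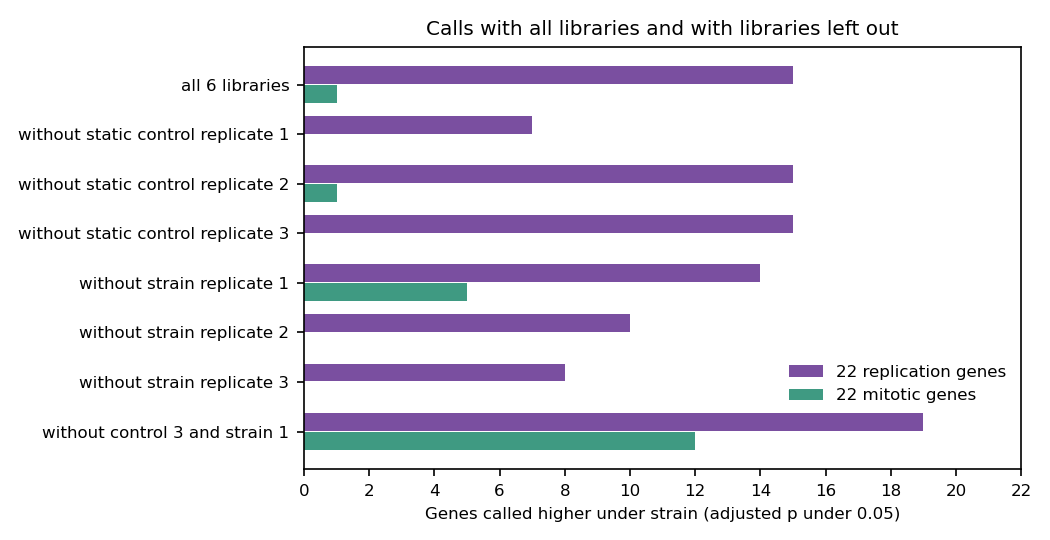
Bars count the genes called higher under strain among 22 replication genes and 22 mitotic genes, with all 6 libraries, with each library left out in turn and with both outlying libraries left out. Replication calls range from 7 to 19 and mitotic calls from 0 to 12, and replication calls are the more numerous in each of the 8 fits.

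Within each library the mean level of the replication genes was set against that of the mitotic genes. Transcript lengths were not used, so only the change of this difference between libraries can be read, not its size or sign within a library. The mean log2 CPM of the replication genes was 5.04 ± 0.042 in controls and 5.50 ± 0.12 under strain, and that of the mitotic genes was 5.06 ± 0.036 and 5.21 ± 0.19 (SD, n = 3). Replication minus mitotic was −0.023, −0.056 and 0.0082 in the controls and 0.35, 0.30 and 0.19 under strain. The groups did not overlap, and strain replicate 1, the lowest strain library for either gene group, had the largest gap between them. The gap of strain replicate 3 was the smallest of the strain libraries. The difference between the medians of the log2 fold changes was 0.24, or 0.16 without strain replicate 1 and 0.31 without strain replicate 2. No test was made of this difference, since the groups were chosen with results known.

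**Figure D5:**
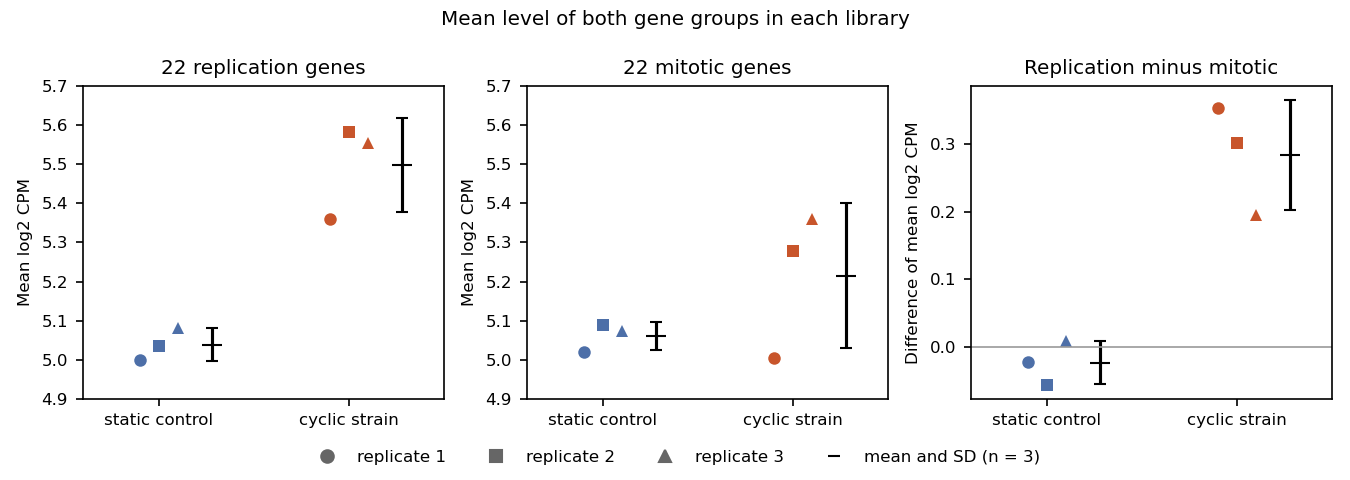
Symbols give the mean log2 CPM of the 22 replication genes (left) and of the 22 mitotic genes (middle), and their difference (right), in each library, with mean and SD (n = 3) beside them. The difference lies between −0.056 and 0.0082 in controls and between 0.19 and 0.35 under strain.

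Genes of the same processes outside the 53 were read against the same shares of all genes, 5.94% called higher by edgeR, 8.07% by DESeq2 and 14.5% at an unadjusted p under 0.05. Of 46 further replication genes 10 were higher and 0 lower by edgeR (21.7% higher, median 0.20), a smaller share than among the members. At an unadjusted p under 0.05 14 were higher and 0 lower, and by DESeq2 12 and 0. They included Clspn, the fork checkpoint adaptor claspin (13.0, 13.1 and 11.01 CPM in controls and 18.5, 21.3 and 19 CPM under strain, adjusted p = 0.00724), Topbp1, which helps origins to fire (log2 fold change 0.63), Orc1, the largest subunit of the origin recognition complex (0.80), and Pole, the leading-strand polymerase (0.65). Of 45 further mitotic genes 5 were higher and 0 lower by edgeR (11.1% higher, median 0.25), with 14 and 0 at an unadjusted p under 0.05 and 8 and 0 by DESeq2. They included Ckap2, a spindle-associated protein (17.9, 18.8 and 16.9 CPM in controls and 29.6, 34.9 and 28.9 CPM under strain, adjusted p = 0.00192), the kinases Wee1 (0.59) and Nek2 (0.68), and Dlgap5 (0.48), a spindle protein. The medians of these 2 lists differed by less than those of the members, and in the other direction. The calls of Clspn, Topbp1 and Ckap2 were kept with any 1 library left out (adjusted p up to 0.0381, 0.0415 and 0.0140). Those of Orc1 (on omitting control library 1 or strain library 2, up to 0.0704), Pole (control replicate 1 or 3, strain replicate 2 or 3, up to 0.0910), Wee1 (strain replicate 2, 0.0516), Nek2 (control replicate 1, strain replicate 2 or 3, up to 0.0707) and Dlgap5 (control replicate 1 or 2, strain replicate 2 or 3, up to 0.147) were lost. With both outlying libraries left out, 16 of the further replication genes and 25 of the further mitotic genes were called higher, against 9.77% of all genes.

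Further G1/S regulators, among them the E2F, retinoblastoma and MuvB families, were higher in 3 of 19 tested by edgeR. By DESeq2 5 were higher, and at an unadjusted p under 0.05 6 were. By edgeR, DESeq2 or limma-voom, or at that unadjusted level, 0 were lower. Of all genes 5.94% were higher by edgeR, 8.07% by DESeq2 and 14.5% at that unadjusted level. The called genes were Lin54 (log2 fold change 0.70), the CHR-binding subunit of the MuvB complex, Lin9 (0.60), another of its subunits, and E2f8 (0.60), a repressive E2F. Their calls were lost on omission of strain library 2 (adjusted p of 0.0522, 0.141 and 0.125), that of E2f8 also on omitting control library 1 or 3 or strain library 3 and that of Lin9 with any of the other libraries left out except strain replicate 1. Inhibitors of cyclin-dependent kinases were lower in 1 of 5 tested by edgeR, against 7.39% of all genes tested. That gene, Cdkn1c, was near the bottom of the measured range at 1.02, 1.29 and 1.68 CPM in controls and 0.216, 0.508 and 0.170 CPM under strain (−2.16, SE 0.46, adjusted p = 0.0127, or 0.0564 with strain replicate 3 omitted). Cdkn1a, or p21, was at 221, 205 and 237 CPM in controls and 214, 180 and 187 CPM under strain (95% interval −0.42 to 0.046). Cdkn1b, or p27, had an interval of −0.53 to 0.070, Cdkn2c one of −0.24 to 0.22 and Cdkn2d one of −0.55 to −0.018 with an adjusted p of 0.143. Cdkn2a and Cdkn2b had 0 counts in all 6 libraries, and a count of 0 allows up to 3 counts, or 0.0731 to 0.0830 CPM depending on the library.

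The start sites of the members were mostly open in the same cell line. Peaks had been called by the authors in each ATAC-seq library separately, and a start site was counted when a peak overlapped the 1000 bases on either side of it by at least 1 base. Of the 41 members with a RefSeq start, 32 and 36 had a peak in GFP control replicates 1 and 2, and 30 and 28 in Piezo1 knockout replicates 1 and 2. The shares of all tested genes with a start were 53.8% and 70.5% in control and 56.5% and 56.6% in knockout, against 78.0%, 87.8%, 73.2% and 68.3% of members. Replication genes had a peak in 15, 16, 14 and 15 of 19 members in the 4 libraries in that order. Mitotic genes had one in 12, 15, 11 and 8 of 16, and the last of these (50%) was below the 56.6% of all tested genes. The libraries held 15978, 26652, 15980 and 13610 peaks, so the libraries with most and fewest mitotic start sites were also those with most and fewest peaks. All tested genes and replication genes did not share that order at the low end. Knockout replicate 2 had 56.6% of tested genes and 15 of 19 replication genes with a peak, against 53.8% and 15 of 19 in GFP control replicate 1. The part of peak number in these counts was not tested. Among genes picked after the peaks were seen, Ccnb1 and Plk1 had a peak in every library except knockout replicate 2, and Mybl2 and Cenpe in both controls and neither knockout. The replication genes Pola1 and Uhrf1 lacked a peak in knockout replicate 1 alone. Tyms and Bub1b had a peak only in GFP control replicate 2 and knockout replicate 1, and Bub1 and Mki67 only in GFP control replicate 2. Mcm2, Rrm2, Prim1, E2f2 and Ccnb2 had none in any library. How often all genes show such patterns was not counted. No test between GFP and knockout was made of these lists, and no RNA of knockout cells was analysed here.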

How the data were processed

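RNA-seq covered 3 static and 3 strained libraries of cDNA amplified by a full-length kit meant for single cells, and ATAC-seq covered 2 GFP control and 2 Piezo1 knockout libraries. The authors deposited a table of raw read counts per gene symbol. Per the submitters' processing notes, the tools included Trim Galore 0.6.5, STAR, HTSeq and DESeq2 for RNA, and Bowtie2 2.4.2 and MACS2 for ATAC-seq, on mm10. The sources used here do not give the strand setting or the treatment of multiply mapped reads, and 24 of the 53 members overlap another RefSeq gene and 5 have named pseudogenes, so reads may be shared. In the peak lists the authors deposited a fold enrichment (a ratio to background) and −log10 p and q for each peak, called per library. ATAC-seq read depth is unknown.

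Counts were fitted in edgeR 4.0.16 (R 4.3.3) with TMM scaling, filterByExpr and the quasi-likelihood test over all 15335 genes, with Benjamini-Hochberg adjustment at 0.05, intervals of 95% and all 6 libraries without a block. Gene counts without molecular identifiers are not independent molecules, so a limit set from a count of 0 covers counting error only. No table of transcript lengths was used, so levels are not compared between single genes. The replication minus mitotic difference is read only across libraries. Mean log2 CPM used a prior count of 2. Alternatives were DESeq2 1.42.0, limma-voom 3.58.1, other scalings, no filter, each library left out, a replicate block and, chosen after seeing the data, both outlying libraries left out. The scripts were tested on simulated data. Replicate pairs all differed by more than sampling noise.

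The members and lists were chosen with earlier results of these data known. Values in every library are given for called members, the 4 uncalled replication and 4 uncalled mitotic genes of smallest p, all G1/S regulators and, where space allowed, other members. From each other list up to 4 called genes with a mean log2 CPM of at least 1 were named by smallest p, and all tested inhibitors; 1 gene that this rule names is not reported here.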

Additional observations from a re-analysis of the deposited data

How the results depend on the processing

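Of 689 recomputed log2 fold changes of 53 named genes, 581 kept direction and call, 79 lost the call, 16 gained one and 13 changed sign. These named genes are not the 53 members. They were picked by the naming rule above, hold genes from outside the members and leave some members out. With 1 library left out, calls ranged from 369 to 1085 higher and 577 to 1244 lower for all genes, 7 to 21 higher and 0 to 1 lower for members, 7 to 15 higher for replication genes, 0 to 5 higher and 0 to 1 lower for mitotic genes, and 0 to 2 higher and 0 to 0 lower for G1/S regulators. Among the other lists they ranged from 2 to 11 higher for replication, 1 to 11 for mitosis, 0 to 3 for G1/S regulators, 0 to 7 higher and 0 to 1 lower for fork repair, and 0 to 1 lower for kinase inhibitors. The median of G1/S regulators ranged from −0.064 to 0.078, and the difference between replication and mitotic medians from 0.16 to 0.31. With library size alone, all genes split into 1169 higher and 935 lower, against 911 and 1134, and 0 members were lower, 2 mitotic genes higher, 0 G1/S regulators lower and their median 0.039. Without a filter, 1428 of all genes and 2 mitotic genes were higher, 1 mitotic gene and 0 G1/S regulators lower, and 8 other mitotic genes higher and 1 lower. DESeq2 called 8 other mitotic genes and 5 other G1/S regulators higher. With both outlying libraries left out, 1512 of all genes, 33 members, 12 mitotic, 16 other replication, 25 other mitotic and 8 fork repair genes were higher, 2 inhibitors lower, and the G1/S median −0.042. The cause of these shifts was not tested.

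The sign changes concerned genes near 0. With 1 library left out E2f1 ranged from −0.065 to 0.061, Ccne2 from −0.20 to 0.084, Cdk2 from −0.0092 to 0.0999 and Cdkn2c from −0.070 to 0.044. E2f1 was at 0.039 with library size alone, 0.0078 without control replicate 3, 0.061 without strain replicate 1 and 0.079 without both. Ccne2 was at 0.0022 with library size alone, 0.016 without control replicate 1 and 0.084 without strain replicate 3. Cdk2 was at −0.0092 without strain replicate 1 and −0.050 without both. Cdkn2c was at 0.037 with library size alone, 0.044 without control replicate 3, 0.021 without strain replicate 1 and 0.079 without both.

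With the replicate number as a block, 1557 of all genes (10.2%), 5 mitotic genes, 10 other mitotic genes, 6 other G1/S regulators and 7 fork repair genes were higher. Of all genes 1619 (10.6%) were lower in that fit. The numbers were not taken as pairs, since no label says that a number marks a shared culture or day. Deviations of same-numbered libraries correlated at 0.028, 0.21 and 0.094, which does not settle whether they are pairs. With 3 libraries a group, changes below about those called were not resolved, and genes of few counts such as Cdc45 had wide intervals. Other peak windows, overlaps and thresholds moved no count of members by over 1.5 times.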

Other observations

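Genes of fork protection and repair, which act on stalled or broken replication forks, were mostly above 0. Of 18 genes 17 had a positive log2 fold change, with a median of 0.40 against 0.0049 over all genes, and 4 were called higher and 1 lower by edgeR, against 5.94% and 7.39% of all genes. Brca1, which promotes repair by recombination, was at 13.7, 13.7 and 11.1 CPM in controls and 16.5, 23.8 and 18.6 CPM under strain (adjusted p = 0.0307), and Brip1, the helicase that binds it, had a log2 fold change of 0.62 (adjusted p = 0.0380). Rad54l, a DNA translocase, was also called, and was named after its values were seen (0.50, adjusted p = 0.0396). The groups did not overlap for any of these 3 genes, which were named because they were called. Over the list, all strain libraries lay above all controls in 12 of 18 genes and below them in 1. The shares of all genes tested were 17.4% and 17.9%.

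Brca2, a mediator of recombination, was the single gene of this list called lower. It was at 10.2, 9.47 and 8.36 CPM in controls and 6.61, 3.90 and 5.79 CPM under strain (−0.78, SE 0.20, adjusted p = 0.0284). Strain replicate 2 was the lowest library for Brca2, as it was for Cenpe, Cenpf and Mki67. Omitting control library 1, or strain library 2 or 3, ended the call of Brca2 (adjusted p up to 0.107). Those of Brca1 and Brip1 ended on omitting any of these or control library 3 (up to 0.126 and 0.136). In the 3 fits without control 1, strain 2 or strain 3, 0 of the 18 were called higher by edgeR, against 2.36%, 2.67% and 2.57% of all genes. With all 6 libraries DESeq2 called 5 of the 18 higher (8.07% of all genes), and edgeR had 11 at an unadjusted p under 0.05 (14.5%).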
